A study of Homo sapiens with 10 samples.

Results

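The genes described here are 10 members of the AP-1 transcription factor family: FOSL1, JUN, JUNB, JUND, FOS, FOSB, FOSL2, ATF3, BATF and BATF3. They were chosen by family membership, not by their signal, though earlier results of these data were known. They make up 10 of the 20098 protein-coding genes of GENCODE v44 on chromosomes 1 to 22 and X. MDAMB231 is an established human triple-negative breast cancer cell line, grown in DMEM with 5% FBS and given no treatment. Its chromatin was profiled by ChIP-seq for H3K4me3, a mark of promoters, H3K4me1, a mark of enhancers, and H3K27Ac, a mark of active promoters and enhancers, and by FAIRE-seq, which recovers DNA depleted of nucleosomes, with 2 samples per assay and input samples. The replicates were combined into a single peak list per assay, so no value below has a replicate error, no difference could be tested, and each comparison is a description. All coordinates are on GRCh37 (hg19) and count from 1.

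AP-1 is a dimer of basic leucine zipper proteins. JUN proteins pair with one another or with FOS proteins, whereas FOS proteins need a partner, and ATF3, BATF and BATF3 dimerise with JUN proteins. The dimers bind TGACTCA or the related cAMP response element TGACGTCA. FOS, FOSB, JUNB and ATF3 are known as early response genes that growth factors or stress switch on quickly, and FOSL1 (Fra-1) is known for its high level in mesenchymal-type breast cancer cells. The questions asked were whether each gene carried promoter marks in MDAMB231, which candidate distal elements lay within 50 kb of it, and where FOSL1 and the JUN genes stood beside the other 6 genes.

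Promoter sequences for 8 of the 10 genes were matched by symbol in a RefSeq table (GRCh38.p14), which holds 250 bases before and 50 bases after a start site. The others were FOSL1 and BATF3. Each sequence was found once in GRCh37, and the positions given are of that match. The 5 printed here show the motif matches at the JUN genes, at FOS, which had no FAIRE peak at its promoter, and at FOSL2, which had one. Capitals mark TGANTCA, TGACGTCA, TGACATCA or TATAAA, searched on both strands, and TGANTCA takes in TGACTCA and its reverse complement TGAGTCA.
JUN promoter, chr1:59249670-59249969, minus strand: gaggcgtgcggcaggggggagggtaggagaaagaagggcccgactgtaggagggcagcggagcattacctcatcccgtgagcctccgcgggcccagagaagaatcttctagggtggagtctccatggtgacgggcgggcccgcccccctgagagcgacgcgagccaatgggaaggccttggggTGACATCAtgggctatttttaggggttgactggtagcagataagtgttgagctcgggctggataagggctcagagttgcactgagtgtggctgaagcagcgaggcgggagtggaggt
JUNB promoter, chr19:12902050-12902349, plus strand: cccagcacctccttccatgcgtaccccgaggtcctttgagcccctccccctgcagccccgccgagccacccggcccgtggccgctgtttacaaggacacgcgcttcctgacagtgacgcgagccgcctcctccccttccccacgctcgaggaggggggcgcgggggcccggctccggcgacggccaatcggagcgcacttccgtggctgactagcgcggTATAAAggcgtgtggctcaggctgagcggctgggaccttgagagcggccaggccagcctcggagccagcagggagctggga
JUND promoter, chr19:18392383-18392682, minus strand: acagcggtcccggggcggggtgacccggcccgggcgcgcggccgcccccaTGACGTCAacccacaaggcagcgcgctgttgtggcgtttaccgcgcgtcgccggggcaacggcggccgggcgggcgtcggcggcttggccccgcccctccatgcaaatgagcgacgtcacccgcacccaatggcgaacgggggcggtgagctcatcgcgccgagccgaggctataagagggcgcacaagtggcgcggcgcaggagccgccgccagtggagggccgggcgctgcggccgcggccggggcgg
FOS promoter, chr14:75745281-75745580, plus strand: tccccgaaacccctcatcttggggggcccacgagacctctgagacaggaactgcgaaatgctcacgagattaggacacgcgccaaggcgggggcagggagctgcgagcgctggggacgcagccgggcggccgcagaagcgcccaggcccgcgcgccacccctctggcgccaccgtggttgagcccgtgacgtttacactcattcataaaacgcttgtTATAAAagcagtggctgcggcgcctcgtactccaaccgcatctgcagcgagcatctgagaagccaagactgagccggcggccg
FOSL2 promoter, chr2:28615475-28615774, plus strand: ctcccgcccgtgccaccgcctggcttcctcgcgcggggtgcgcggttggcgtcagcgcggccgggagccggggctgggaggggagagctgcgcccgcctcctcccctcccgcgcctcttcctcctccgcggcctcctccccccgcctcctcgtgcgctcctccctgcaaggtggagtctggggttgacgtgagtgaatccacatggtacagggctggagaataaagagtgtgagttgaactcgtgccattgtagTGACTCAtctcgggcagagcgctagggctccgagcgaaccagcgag
The JUN promoter held TGACATCA, a variant AP-1 sequence, which was in 2.61% of the 34961 promoters of the table, ATF3 being the other member with it. JUND held the full TGACGTCA, in 1.85% of promoters. FOSL2 alone of the 8 genes held TGANTCA, in 7.68% of promoters. FOS, FOSB, JUNB and 1 of the 2 ATF3 promoters held TATAAA, in 11.5% of promoters. The CArG box, the sequence that serum response factor binds, was in none of these 300-base windows and in 1.30% of promoters. Sequence more than 250 bases before a start site was not searched for it. A match is a match of letters and does not show that a factor was bound.

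All 10 genes carried both active promoter marks. An H3K4me3 peak shared at least 1 base with a start site widened by 1 kb at 10 of 10 genes, against 67.3% of all protein-coding genes, and an H3K27Ac peak did so at 10 of 10, against 63.5%. Both marks were at the promoter of 61.3% of all protein-coding genes. When the centre of the peak had to lie inside the promoter, FOSL1 was lost in both marks and 9 genes were left in each. A FAIRE peak lay at the promoter of 7 of 10 genes, against 39.3% of all protein-coding genes and 59.6% of those with both H3K4me3 and H3K27Ac there. The 7 were FOSL1, all JUN genes, FOSB, FOSL2 and ATF3. FOS, BATF and BATF3 had none, so all 4 of FOSL1 and the JUN genes but 3 of the other 6 had an open promoter by this measure. The JUND call was lost with promoters of 500 bp, with the 5′ end alone and with peak centres, and its FAIRE peak was centred 1.8 kb downstream of the 5′ end in an exon. With the 5′ end alone ATF3 was lost as well, and 5 genes were left. At FOSB the FAIRE peak was centred 1.3 kb downstream in an intron. The RefSeq promoters of JUND and FOSB, like those of FOS, BATF and ATF3, shared no base with a FAIRE peak. When FAIRE peaks lower than the list's median were set aside, 4 genes were left with a promoter peak, namely FOSL1, JUN, FOSB and ATF3. H3K4me1 peaks met the promoters of JUND and FOSL2, or 2 of 10 genes, against 20% of all protein-coding genes. The JUND peak was centred 5.3 kb downstream and scored 66.94, which 80.6% of the list reached. Its call was lost with promoters of 500 bp, with the 5′ end alone and with MACS p at or under 1e-10.

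The promoter peaks of the family ran from among the weakest of their list to among the widest. Histone peaks carry the MACS score, which is minus 10 times the log10 of the p-value and reached 3100 or more in 56.8% of H3K4me3 peaks and 10.5% of H3K27Ac peaks, so width was used to order the strongest. At FOSL1, the H3K4me3 peak at chr11:65654269-65671803 was 17535 bp wide, and 2 of the 18019 peaks of the list, this one included, were at least as wide. The H3K27Ac peak at chr11:65654244-65689161 was 34918 bp wide, a width that 8 of 37495 peaks reached. That H3K27Ac peak held start sites of 5 protein-coding genes, FOSL1, CCDC85B, FIBP, C11orf68 and DRAP1, and met 8 FAIRE peaks. The H3K4me3 peak held start sites of FOSL1, CCDC85B and FIBP and met 4. These widths therefore belong to a cluster of genes and not to FOSL1 by itself.

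**Figure D1:**
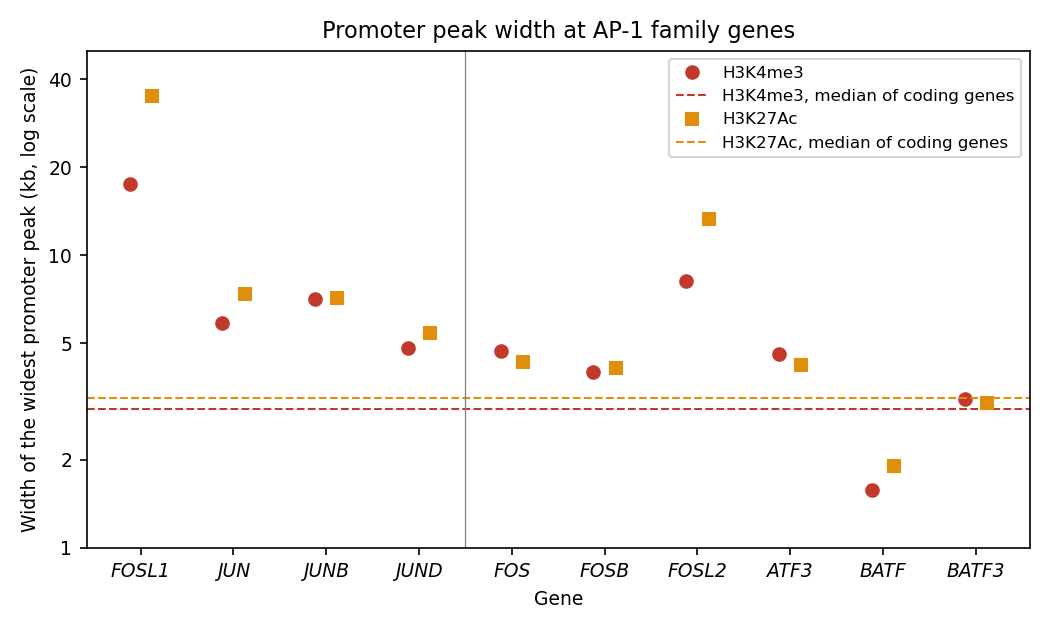
Width of the widest H3K4me3 peak (circles) and H3K27Ac peak (squares) at the promoter of each gene, in kb on a log scale, with dashed lines at the median over all protein-coding genes that had such a peak. FOSL1 lies highest in both marks, at 17535 and 34918 bp, FOSL2 is next, and BATF lies below both medians, at 1572 and 1911 bp.

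FOSL2, which encodes Fra-2, had the next widest promoter peaks of the family. Its H3K4me3 peak spanned 8150 bp and its H3K27Ac peak 13332 bp, and in both FOSL2 was the only protein-coding gene with a start site inside. Of the genes with a promoter peak, 0.591% had an H3K4me3 peak and 1.12% an H3K27Ac peak as wide. JUNB followed in H3K4me3 with 7071 bp, in a peak shared with a start site of HOOK2, and JUN followed in H3K27Ac with 7394 bp. The H3K4me3 promoter peaks of JUN and JUND were 5859 and 4830 bp wide. At FOS the H3K4me3 peak reached 4707 bp with a score of 3100, and the H3K27Ac peak 4327 bp with a score of 1732.94. Median promoter peak widths were 6465 bp for FOSL1 and the JUN genes and 4301 bp for the others in H3K4me3, and 7257.5 and 4176.5 bp in H3K27Ac. The medians over all protein-coding genes with a promoter peak were 2973 and 3251 bp. The ranges of the groups overlapped, since FOSL2 was wider than each JUN gene in both marks.

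The promoter peaks of FOSB, BATF and BATF3 ranked differently within their lists. FOSB had an H3K4me3 score of 3100, which 56.8% of the peaks of that list reached, and an H3K27Ac score of 433.3, which 57.1% reached. At BATF, a gene known from lymphocytes, the promoter H3K27Ac score was 50.16, near the threshold of the list, and 99.9% of H3K27Ac peaks scored as high. Its H3K4me3 score was 169.82. With MACS peaks of p at or under 1e-10, BATF lost its promoter H3K27Ac peak. BATF3, also best known from immune cells, had scores of 3100 for H3K4me3 and 1369.54 for H3K27Ac, which 56.8% and 28.8% of the peaks of those lists reached, in peaks of 3230 and 3120 bp.

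ATF3, a stress response gene, had promoter peaks at 2 places along its 55444 bp. The promoter peaks farther downstream, with H3K4me3 at chr1:212779563-212784169 and H3K27Ac at chr1:212779762-212783981, scored 3100 and 2441.48, and a FAIRE peak of height 79.3 lay under them. The peaks nearer the 5′ end of the gene bounds, at chr1:212739342-212741208 for H3K4me3 and chr1:212739277-212741559 for H3K27Ac, scored 364.88 and 944.19, and met the tallest FAIRE peak of the ATF3 window, of height 99.5, which itself lay outside the 1 kb promoters. Between them, an intronic H3K27Ac peak at chr1:212768398-212771280 scored 2142.66 and met H3K4me1 (85.18) and H3K4me3 (125.58) peaks, and another at chr1:212752682-212754344 scored 116.01 and met H3K4me1 (60.8). By their centres, all of these peaks lie in introns of the annotated gene. The 2 RefSeq promoters of ATF3 shared no base with a peak of any of the 4 lists.

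The windows, gene bounds widened by 50 kb on each side, held 45 different H3K4me3 peaks, 54 H3K27Ac peaks, 21 H3K4me1 peaks and 63 FAIRE peaks. ATF3 and BATF3 are neighbours on chromosome 1 with windows that overlap, so 1, 2, 2 and 2 of these peaks were counted at both. Many peaks belonged to neighbouring genes. A promoter of any protein-coding gene, the 10 members included, met 30 of the 45 H3K4me3 peaks, 26 of the 54 H3K27Ac peaks, 4 of the 21 H3K4me1 peaks and 19 of the 63 FAIRE peaks. Besides the member itself, 9 protein-coding genes had a promoter in the FOSL1 window, 7 in that of JUNB, 5 in that of JUND and 4 in that of FOSB, but 0 in those of JUN, FOS and BATF3.

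**Figure D2:**
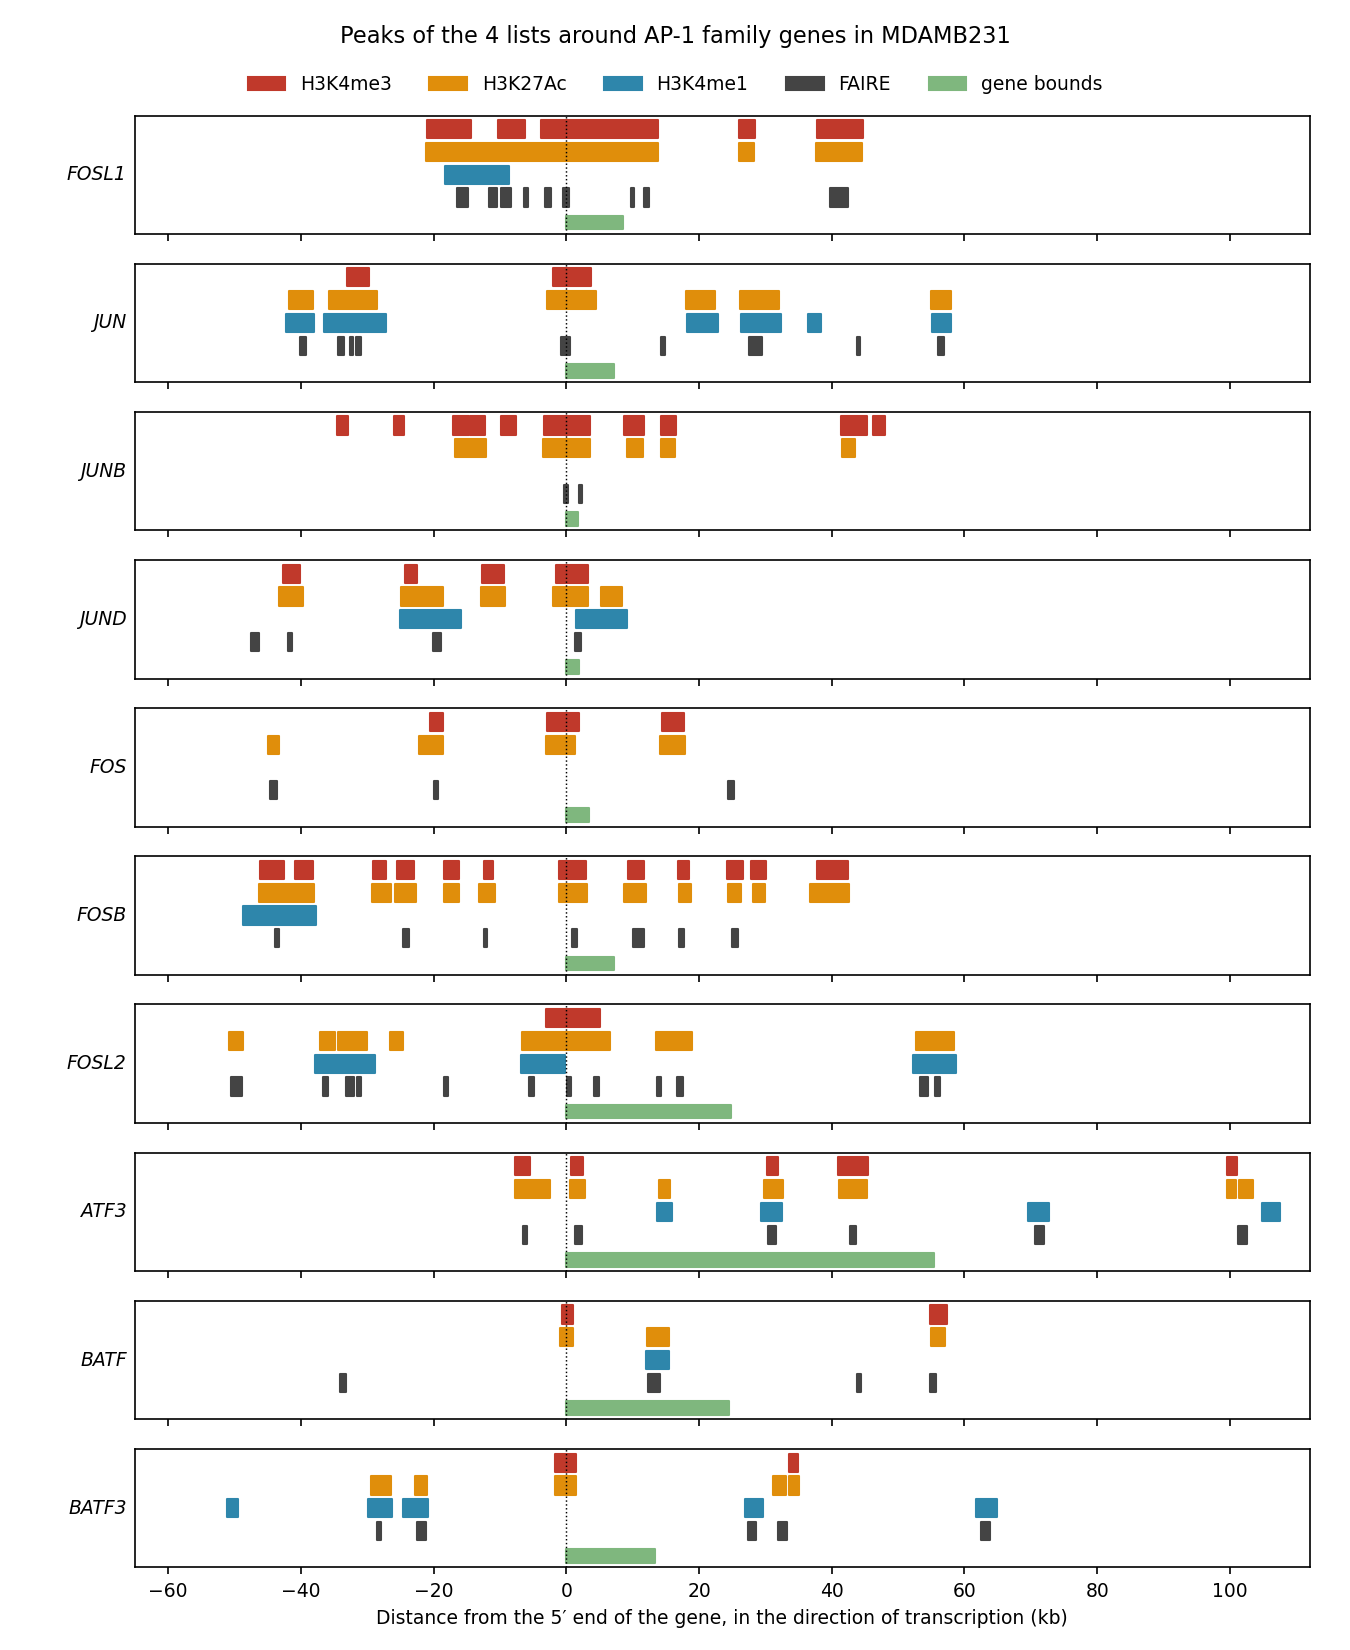
Position of each peak within 50 kb of the 10 genes, as distance in kb from the 5′ end of the gene in the direction of transcription, with 1 lane per list and the gene bounds below. FOSL1 shows a single H3K27Ac peak across its start site, JUN shows separate peaks on both sides of it, and FOS and JUNB have no H3K4me1 peak.

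FOSB and JUNB had the most H3K4me3 peaks. FOSB had 12, a number reached by 0.0448% of all protein-coding genes, and JUNB had 10, reached by 0.403%. At each, a single peak met the gene's own promoter, and 4 and 2 met no promoter of a protein-coding gene. The rest met promoters of neighbouring protein-coding genes. FOSL2 had 1 H3K4me3 peak. The median was 3.5 over the 10 genes and 2 over all protein-coding genes. FOSB also led the family in H3K27Ac with 11 peaks, against a median of 5 over the 10 genes and 3 over all. By bases covered, FOSL1 came first in both marks, with 37608 bp under H3K4me3, which 0.0746% of protein-coding genes reached, and 44182 bp under H3K27Ac, which 1.59% reached, in 5 and 3 peaks.

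H3K4me1 and FAIRE gave another order. JUN had the most H3K4me1 peaks, 6 of them covering 28440 bp, which 4.44% of protein-coding genes reached, followed by BATF3 with 5 and ATF3 with 4. FOS and JUNB had none, while 8 of 10 genes had at least 1, against 62.7% of all protein-coding genes. FAIRE peaks were most numerous at FOSL2, with 12, and FOSL1, with 11, numbers that 3.97% and 5.19% of protein-coding genes reached. JUN had 9 and FOSB 8. JUNB had the fewest, 2, and FOS had 3. The median was 6 over the 10 genes, against 3 over all protein-coding genes.

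**Figure D3:**
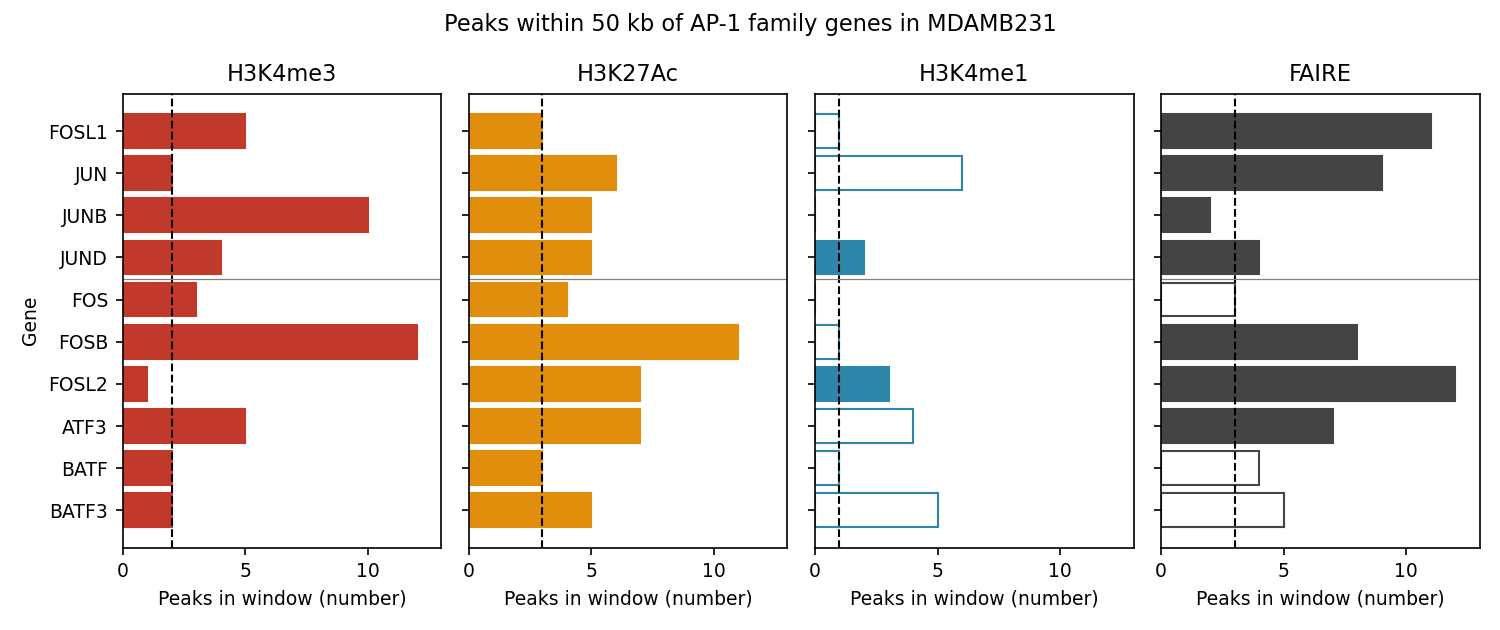
Number of peaks of each list in the 50 kb window of each gene, with FOSL1 and the JUN genes above the grey line, the other 6 below it, and a dashed line at the median over all protein-coding genes. Filled bars mark genes with a peak of that list at the promoter; FOSB and JUNB had the most H3K4me3 peaks, with 12 and 10, and FOSL2 and FOSL1 the most FAIRE peaks, with 12 and 11.

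FOSL1 and the JUN genes were then set beside the other 6 genes. Their median H3K27Ac coverage was 26468.5 bp, against 16694 bp for the others and 9452.5 bp over all protein-coding genes. In H3K4me3 it was 20341.5 bp, against 9083.5 bp and 5757 bp. The windows differed in neighbours, with promoters of 9, 7 and 5 other protein-coding genes at FOSL1, JUNB and JUND. FOSB had 4, and each remaining member at most 1. JUN, with 0, had 9184 bp under H3K4me3 and 30949 bp under H3K27Ac. The part of neighbouring promoters in these medians was not tested. The highest H3K27Ac score in the window was at least 3100 at FOSL1 and each JUN gene, against a median of 2087.21 for the others, of which FOSB and FOSL2 also reached 3100. The highest H3K4me3 score had a median of 3100 in both groups. The median number of H3K4me3 peaks was 4.5 against 2.5, and 3 against 2 and 8 against 4 with bounds widened by 20 kb and 100 kb. H3K27Ac went the other way, with a median of 5 peaks against 6, H3K4me1 medians were 1.5 and 2, and FAIRE medians were 6.5 and 6. Both orders turned at 20 kb, to 1.5 against 1 for H3K4me1 and 2 against 4 for FAIRE. Widening the bounds by 20 kb or 100 kb turned the H3K27Ac order to 3.5 against 2.5 and 9.5 against 8.5. Bases under H3K27Ac were 14986.5 against 12762 bp at 20 kb and 41987.5 against 25804 bp at 100 kb. FAIRE coverage, 6249.5 against 5745 bp, turned to 1919.5 against 3313 bp at 20 kb, and H3K4me1 coverage, 13299.5 against 10207 bp, was 7686.5 against 3108.5 bp at 20 kb and 4890.5 against 2024 bp with MACS p at or under 1e-10, and turned to 13299.5 against 17972 bp at 100 kb. With bounds widened by 50 kb and the full lists, the ranges of the groups overlapped in each of these measures. Ranges were not compared at the other settings. Within the first group, JUN and JUNB stood far apart, with 28440 and 0 bp under H3K4me1 and with tallest FAIRE peaks of 179.9 and 61.6.

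Distal peaks were those that shared no base with the promoter of any protein-coding gene. Peaks at promoters of noncoding genes were thus counted as distal. Near the 10 genes there were 28 distal H3K27Ac peaks, of which 14 (50%) met an H3K4me1 peak and 21 (75%) a FAIRE peak, against 68.0% and 73.7% of the 24061 distal H3K27Ac peaks of the whole list. By group, 6 of 7 (85.7%) met H3K4me1 for FOSL1 and the JUN genes, most of them at JUN, and 8 of 21 (38.1%) for the others. FAIRE was met by 5 of 7 (71.4%) and 16 of 21 (76.2%). Of 17 distal H3K4me1 peaks, 13 (76.5%) met H3K27Ac and 13 met FAIRE, against 71.5% and 72.6% of all 22036. Of 44 distal FAIRE peaks, 35 (79.5%) met H3K27Ac and 23 (52.3%) H3K4me1, against 67.2% and 61.2% of all 37512. JUN contributed 5 of the distal H3K27Ac peaks, and all 5 met H3K4me1 and 4 met FAIRE as well. At FOS and FOSB, 0 of 3 and 0 of 4 distal H3K27Ac peaks met H3K4me1, although 2 and 3 of them met FAIRE. All of those at FOSB also met an H3K4me3 peak. So did the FOS peaks at chr14:75723330-75726923 and chr14:75759655-75763461, which lay within 1 kb of start sites of noncoding genes. FOSL2 had 6 distal H3K27Ac peaks, of which 3 met both H3K4me1 and FAIRE. FOSL1 and JUNB had no distal H3K27Ac peak by this rule, since each of theirs reached a promoter. Counting distal peaks only, the H3K4me3 median was 1.5 both for FOSL1 and the JUN genes and for the others. For H3K27Ac it was 1 against 4, for H3K4me1 0.5 against 1.5 and for FAIRE 3.5 against 4. The lead of FOSL1 and the JUN genes in number of H3K4me3 peaks was thus absent among distal peaks.

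The strongest distal elements of JUN, the gene of c-Jun, lay on both sides of it and outside protein-coding genes. At 28.5 kb downstream of its 5′ end, a FAIRE peak of height 179.9 (chr1:59220159-59222207) coincided with an H3K4me1 peak of score 881.43 and an H3K27Ac peak of score 3100. It was the tallest FAIRE peak near any of the 10 genes. About 20 kb downstream, an H3K4me1 peak of score 753.71 and an H3K27Ac peak of score 3051.06 overlapped without a FAIRE peak. Both lay within 1 kb of a start site of the noncoding gene AL136985.1. At 56.4 kb downstream, a FAIRE peak of height 147.8 (chr1:59192843-59193720) met H3K27Ac at 2405.28 and H3K4me1 at 270.7. Upstream, a broad H3K27Ac peak of 7269 bp at chr1:59278210-59285478 held 3 FAIRE peaks and lay within 1 kb of start sites of the noncoding gene LINC01135. It also met an H3K4me3 peak of score 2189.57.

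Upstream of FOSL1, 5 distal FAIRE peaks lay inside the wide H3K27Ac peak, between 2.7 and 15.6 kb from the 5′ end. The tallest had heights of 126.4 at 15.6 kb (chr11:65682884-65684490) and 118.2 at 11 kb (chr11:65678449-65679725). Both met the sole H3K4me1 peak of the window, which was 9781 bp wide with a score of 639.34 and reached the promoters of C11orf68 and DRAP1. The FAIRE peak at the FOSL1 promoter itself had a height of 75.7, which 31.7% of the list reached. At JUN the promoter FAIRE peak had a height of 122.8, which 6.45% reached.

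FOS had its tallest FAIRE peak, of height 148.8, 19.6 kb upstream at chr14:75725538-75726247, where H3K4me3 (909.46) and H3K27Ac (431.2) also peaked, within 1 kb of start sites of noncoding genes. A further pair of H3K4me3 and H3K27Ac peaks, with scores of 3100 and 1023.62, lay 16 kb downstream within 1 kb of start sites of LINC01220 and had no FAIRE peak. In BATF, whose promoter H3K27Ac peak was near the threshold, the distal H3K27Ac peak lay inside the gene. There, in an intron, a FAIRE peak of height 133.6 at chr14:76001112-76002982 met H3K27Ac at 1319.91 and H3K4me1 at 124.65, higher in H3K27Ac than the promoter by score. JUND had its tallest FAIRE peak, of height 144.0, 47.0 kb upstream, and this FAIRE peak met no H3K4me3, H3K27Ac or H3K4me1 peak. Separate from it was a distal H3K27Ac peak of 6271 bp at chr19:18411020-18417290. The score of that H3K27Ac peak, 3191.69, lies in the range where scores do not rank peaks, as does the 3100 of the JUND promoter peak.

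The sequences of FAIRE peaks near the genes were searched for the AP-1 motif in their central 300 bases. TGANTCA was in 22 of 63 peaks (34.9%), against 39.1% of all 46531 FAIRE peaks on chromosomes 1 to 22 and X, and TGACGTCA was in 1 of 63 (1.59%), against 0.681%. The TGANTCA share was therefore not above that of the list, and the TGACGTCA share rests on 1 peak. By group it was 5 of 26 peaks (19.2%) for FOSL1 and the JUN genes and 17 of 37 (45.9%) for the others. FOSL1 had the motif in 1 of 11 peaks, and FOSL2 in 6 of 12. The groups differed in make-up, since 15 of the 26 peaks and 29 of the 37 were distal. Among the 11 FOSL1 peaks, 5 were distal. All 5 motif peaks of the first group were distal. So were those of the others, except a peak at the FOSL2 promoter and one at an ERCC1 promoter near FOSB. Whether this make-up bears on the motif shares was not tested. With the whole peak searched, 29 of 63 peaks (46.0%) held TGANTCA, against 59.2% of all. FOSL1 then had it in 4 of 11 peaks and FOSL2 in 6 of 12, and the groups in 9 of 26 (34.6%) and 20 of 37 (54.1%). The 5 stretches printed here are central parts of distal peaks with matches, namely the JUN peaks at 28.5 and 56.4 kb, the FOSL1 peak with 2 matches, the ATF3 peak with both motifs, and an intronic FOSL2 peak. Capitals mark TGANTCA and TGACGTCA.
JUN, 28.5 kb downstream of the 5′ end, chr1:59221034-59221333, plus strand: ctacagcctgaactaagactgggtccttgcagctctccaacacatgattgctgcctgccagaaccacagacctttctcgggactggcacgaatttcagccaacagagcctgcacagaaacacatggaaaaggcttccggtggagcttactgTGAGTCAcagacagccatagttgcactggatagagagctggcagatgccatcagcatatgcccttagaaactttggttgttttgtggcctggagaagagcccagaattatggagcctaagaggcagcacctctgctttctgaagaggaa
JUN, 56.4 kb downstream, chr1:59193132-59193431, plus strand: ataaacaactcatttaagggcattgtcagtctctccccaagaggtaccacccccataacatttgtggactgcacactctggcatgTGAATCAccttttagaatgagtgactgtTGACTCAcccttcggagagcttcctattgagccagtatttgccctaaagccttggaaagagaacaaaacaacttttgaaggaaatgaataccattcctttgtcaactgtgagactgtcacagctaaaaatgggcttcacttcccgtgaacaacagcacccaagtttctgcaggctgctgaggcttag
FOSL1, 11 kb upstream, chr11:65678938-65679237, plus strand: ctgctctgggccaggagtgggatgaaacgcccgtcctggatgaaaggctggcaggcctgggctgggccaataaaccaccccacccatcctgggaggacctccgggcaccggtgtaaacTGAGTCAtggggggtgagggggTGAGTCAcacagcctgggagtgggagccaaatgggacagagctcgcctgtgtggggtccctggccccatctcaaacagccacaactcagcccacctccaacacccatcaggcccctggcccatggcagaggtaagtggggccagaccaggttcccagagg
ATF3, 6.2 kb upstream, chr1:212732294-212732593, plus strand: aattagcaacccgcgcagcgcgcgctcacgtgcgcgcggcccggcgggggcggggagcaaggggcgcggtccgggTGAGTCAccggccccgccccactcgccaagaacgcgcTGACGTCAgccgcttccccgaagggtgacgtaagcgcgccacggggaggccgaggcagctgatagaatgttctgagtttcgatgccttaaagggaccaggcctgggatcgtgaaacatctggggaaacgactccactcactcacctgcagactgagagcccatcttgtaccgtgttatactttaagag
FOSL2, 17.1 kb downstream, intron of FOSL2, chr2:28632312-28632611, plus strand: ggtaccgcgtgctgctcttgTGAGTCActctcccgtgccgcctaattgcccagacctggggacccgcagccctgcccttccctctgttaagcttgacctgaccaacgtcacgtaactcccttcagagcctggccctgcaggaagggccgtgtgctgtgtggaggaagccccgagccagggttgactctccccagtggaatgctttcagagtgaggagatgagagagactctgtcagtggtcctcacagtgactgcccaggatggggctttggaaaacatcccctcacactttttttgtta
The FOSL1 stretch held 2 copies of TGAGTCA, the reverse complement of TGACTCA. The ATF3 stretch held TGAGTCA and TGACGTCA and lay in a FAIRE peak within 1 kb of start sites of noncoding genes, with a height of 60.5. The FOSL2 peak had a height of 89.5 and lay under an H3K27Ac peak of score 1754.32 with no H3K4me1 peak. The tallest FAIRE peaks of FOSL1, JUNB, JUND, FOS, FOSL2 and BATF held no TGANTCA in their central 300 bases, which says only that the letters were not in that stretch. Over the whole peak, those of FOSL1 and BATF held 2 matches each.

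**Figure D4:**
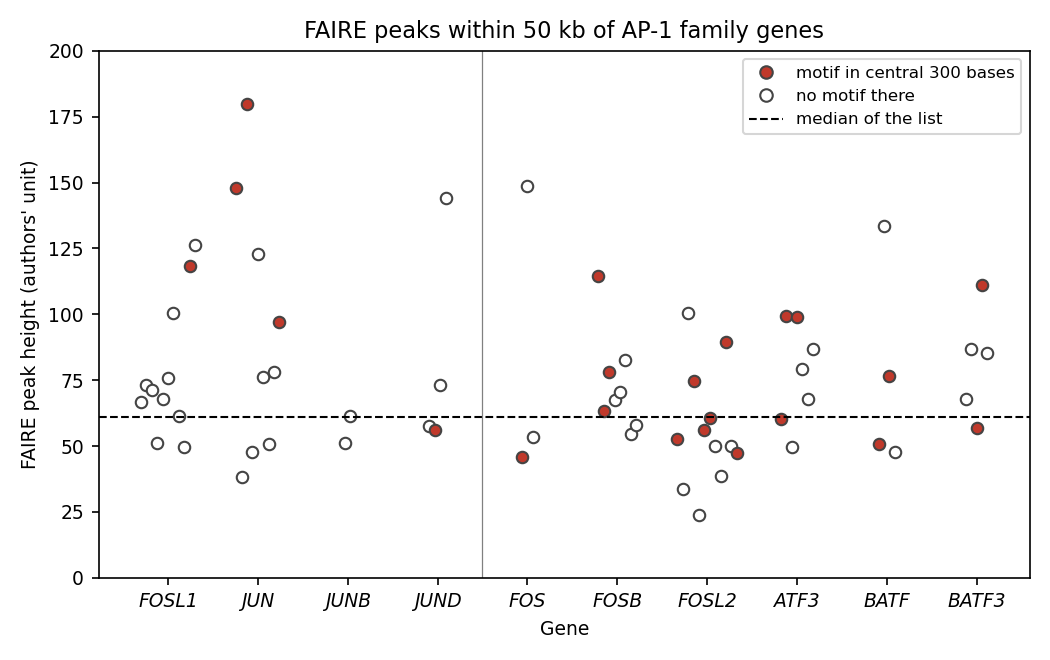
Height of every FAIRE peak within 50 kb of each gene, in the unit of the authors, in order of position, with a dashed line at the median of the list. Red points held TGANTCA in their central 300 bases, 22 of 63 different peaks, and the tallest peak with the motif was at JUN (179.9) and the tallest without it at FOS (148.8).

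The genes around the family in the pathway were counted from fixed lists. Of 16 basic leucine zipper relatives, 15 had a promoter H3K4me3 peak, against 67.3% of all protein-coding genes, and 14 an H3K27Ac peak, against 63.5%. BATF2 had neither and NFE2, an erythroid factor, lacked H3K27Ac, while BACH1 and MAFG had the most bases under H3K27Ac in their windows, 51900 and 37227 bp. All 17 regulators, among them serum response factor and the MAP kinases that act on FOS and JUN, had both marks, against 61.3% of all protein-coding genes, and MAP2K2 and CREB1 led with 37090 and 28200 bp. Of 13 known AP-1 targets, 9 had both marks, near the 61.3% of all protein-coding genes. The 4 without either were the matrix metalloproteinase genes MMP1, MMP3, MMP9 and MMP10, of which MMP1 had a FAIRE peak at its promoter. DUSP1, a phosphatase gene, and CD44, a cell surface receptor gene, led the targets with 42910 and 39029 bp, beside the 44182 bp of FOSL1. Windows are longer around longer genes, so these sums are not per length.

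By the 8 values of promoter peaks and peak numbers in the 4 lists, each scaled by its SD over genes, the genes nearest FOSL1 were CCDC85B and FIBP, both at a distance of 0. They lie 414 and 3518 bp from FOSL1 and share its peaks. MUS81 came next at 0.607, 24396 bp away on the same chromosome, followed by USP10 at 0.626 on chromosome 16 and ANO8 at 0.726 on chromosome 19. The promoter of MUS81 lies in the FOSL1 window and meets H3K4me3, H3K27Ac and FAIRE peaks counted for FOSL1, so MUS81 also shares peaks with it.

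Marker genes were checked for the identity of the cells. All 6 mesenchymal genes (VIM, ZEB1, AXL, CAV1, CD44 and FN1) had H3K4me3, H3K27Ac and FAIRE peaks at their promoters, against 67.3%, 63.5% and 39.3% of all protein-coding genes. Of the 6 luminal genes, 2 had both H3K4me3 and H3K27Ac there, against 61.3% of all, namely GATA3 and ERBB3, while ESR1 and PGR had H3K4me3 without H3K27Ac, and TFF1 and CDH1 had H3K27Ac without H3K4me3. The lymphocyte genes CD3E, PTPRC and CD79A had 0 promoter peaks in all 4 lists, whereas BATF and BATF3 had both H3K4me3 and H3K27Ac.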

How the data were processed

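MDAMB231 peak lists for H3K4me3, H3K27Ac, H3K4me1 and FAIRE were used, each made by the authors from 2 combined samples. The authors used BWA to align reads to GRCh37 (hg19), filtered them by mapping quality and for duplicates, and ran MACS with input as control for the histone marks and FindPeaks for FAIRE, as the study's methods state. The submitters' processing notes also name HOMER, which the study used for merging and annotating peaks, and TopHat. For histone peaks the authors deposited the MACS score, which is the log10 of the p-value multiplied by minus 10. The deposited FAIRE value is a signal height whose scaling is not given in the sources used here. Read depth was not taken from the lists, which hold none, so the depth behind a peak is unknown.

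Gene bounds and start sites came from GENCODE v44 lifted to GRCh37. Overlap was at least 1 base, and 5 repeated FAIRE rows were dropped. Counting used numpy 2.4.6 and pandas 2.3.3 and was tested on simulated intervals against bedtools 2.31.1. The members and lists were chosen with earlier results of these data known. Genes named from the lists are those without H3K4me3 or H3K27Ac at the promoter and the 2 with most H3K27Ac bases; from the distances, the 5 nearest FOSL1. Other single peaks were named after their values were seen. A marker gene of the lists is not reported here. Alternatives were promoters of 500 bp or 2 kb, the 5′ end alone, protein-coding transcripts, MACS p at or under 1e-10, FAIRE peaks no lower than the median, peak centres, windows of 20 or 100 kb, peaks per 100 kb, whole FAIRE peaks, and, added after seeing the data, TGACTCA alone.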

Additional observations from a re-analysis of the deposited data

How the results depend on the processing

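No paired analysis was possible because a list joins the 2 samples of its assay, and no sample could be left out. Of 83 alternative values, 50 stayed within 1.5 times the value reported (shares within its 95% binomial interval), 26 moved further and 7 turned in direction; beyond the size of the window or the strictness of the list, which set the counts by construction, the cause was not tested.

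The number of genes with a promoter H3K4me1 peak, 2 as reported, was 1 with promoters of 500 bp, 1 with the 5′ end alone, 1 at p at or under 1e-10 and 0 with peak centres. Promoter FAIRE peaks fell from 7 genes to 4 above the median height. Median peaks per window were 5.5 (H3K4me3), 9 (H3K27Ac), 3 (H3K4me1) and 11.5 (FAIRE) at 100 kb, 3 (H3K27Ac) and 2 (FAIRE) at 20 kb, and 3.5 for FAIRE above the median height.

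The median of FOSL1 and the JUN genes minus that of the others was 2 for H3K4me3, and 1 at 20 kb and 4 at 100 kb. For H3K27Ac it was -1, and turned to 1 at 20 kb, 1 at 100 kb and 0.452 per 100 kb, with 0 at p at or under 1e-10. For H3K4me1 it was -0.5, and 0.5 at 20 kb, -2.5 at 100 kb and -0.2259 per 100 kb. For FAIRE it was 0.5, and -2 at 20 kb, 1 at 100 kb and 1.704 per 100 kb. The same difference in covered bases was 11258 for H3K4me3, and 4831 at 20 kb and 21741 at 100 kb. For H3K27Ac it was 9774.5, and 2224.5 and 16183.5. For H3K4me1 it was 3092.5, and -4672.5 at 100 kb. For FAIRE it was 504.5, and -1393.5 at 20 kb, 2567.5 at 100 kb and 881 above the median height. The share of distal H3K4me1 peaks with FAIRE was 90.9% at p at or under 1e-10, over fewer peaks.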
